A study of Mus with 2 samples.

Results

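The Toll-like receptors of the macrophage, together with the LPS co-receptor Cd14, were followed in mouse bone marrow derived macrophages (BMDMs) given the farnesoid X receptor (FXR) agonist GW4064. The set held 10 genes, chosen by name (Tlr1, Tlr2, Tlr3, Tlr4, Tlr6, Tlr7, Tlr8, Tlr9, Tlr13 and Cd14), out of 20144 genes that the probes of the array could be matched to. BMDMs from 10-week-old male C57BL6/J mice were grown for 7 d with 10 ng/mL of M-CSF and then kept for 24 h under M2 conditions, in medium with 10 ng/mL of IL-4, which polarizes macrophages towards the M2 state. One culture received 10 µM GW4064 during those 24 h and the other its solvent DMSO, and the sources used here do not say how many mice gave the cells. The RNA of each culture was labelled with Cy3 and read on 1 Agilent 1-colour array. The labels name GW4064 in the title and treatment of the treated sample, although its description line still says DMSO.

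Toll-like receptors recognise conserved molecules of microbes and pass the signal on through adaptors that hold a TIR domain, mainly MyD88 and TRIF, to NF-kB and to interferon regulatory factors. Those at the cell surface bind lipopeptides and LPS, whereas those in endosomes bind nucleic acids and have to be carried there by the chaperone UNC93B1. Macrophages express most of the family and respond to its ligands with inflammatory cytokines, the opposite arm of activation to the one that IL-4 drives.

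With 1 array per condition there was no replicate error and no test, and a difference of 2-fold or more was used as the threshold. Signals are given in the arbitrary units of the scanner software after its background subtraction. The log2 difference is that of GW4064 minus DMSO after both arrays were brought to the same 75th percentile, a signal of 1209 before scaling for DMSO and of 1265 for GW4064. The scanner software gave each spot an error of its own, close to 10% of the signal for all but dim spots, which makes about 0.20 on the log2 difference of a single spot. Probes printed 10 times on each array gave a smaller error, with a median SD of 0.077 over the copies for 232 such probes. Neither error covers the difference between 1 culture and another. Damaged areas is a working name for places on the slide where 2 or more other spots within 300 µm differed 8-fold or more between the arrays. They held 16.5% of all spots and 7 of the 20 spots of the receptor probes. Dim spots, marked spots and spots of genes that differ were counted too, so such an area need not be damage to the slide. The signals of different probes are not compared with one another, since probes differ in how strongly they bind. Sums over marker genes serve only to set one array against the other, and take in genes that were not well above background.

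All 10 genes were well above background on both arrays, by 11 probes in all. None was 2-fold or more higher and none was 2-fold or more lower with GW4064 (0 of 10 in each direction), where 2.04% of 13532 genes measured were higher and 2.71% were lower by that much. None passed 1.5-fold either, the background there being 4.39% higher and 5.56% lower. By sign alone, 5 of the 10 were higher and 5 lower, beside 51.6% and 48.2% of all genes. The median log2 difference of the 10 genes was 0.033, and that of all genes measured was 0.0068. Of the 10 genes, 5 lay within the middle 50% of all genes measured (-0.12 to 0.13). All 10 lay between the 5th and the 95th percentile (-0.65 to 0.53). The largest difference of the set was that of Tlr2, which was 1.28-fold lower.

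**Figure D1:**
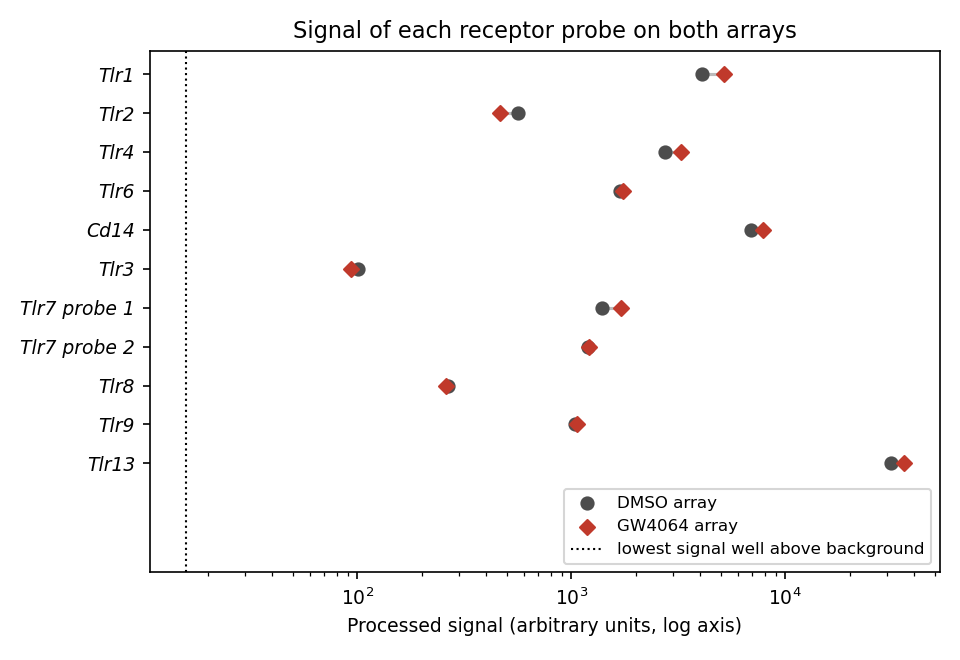
Processed signal (arbitrary units, log axis) of the 11 probes for the 10 genes on the DMSO array (grey circles) and the GW4064 array (red diamonds), before scaling between the arrays; Tlr2 is the mean over the copies of its probe. Each pair of points lies close together and to the right of the dotted line, the lowest signal that counted as well above background (15.7).

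Among the receptors of the cell surface, Tlr1 and Tlr4 were somewhat higher with GW4064 and Tlr2 was lower, all by less than 1.5-fold. TLR2 pairs with TLR1 to bind triacylated lipopeptides and with TLR6 to bind diacylated ones. The Tlr2 probe was the only one of the set printed 10 times. On the DMSO array its copies had signals between 394 and 656 with a median of 582, and on the GW4064 array between 416 and 511 with a median of 464. After scaling, 9 of the 10 DMSO copies lay above the highest GW4064 copy. The log2 difference was -0.35, with an SD of 0.23 over the 9 copies that the software had not marked as outliers on either array, and 9 of the 10 copies were lower with GW4064. The exception was the copy with the lowest DMSO signal, 394 against 463 with GW4064, which had 8 spots with 8-fold differences around it. Without that copy the log2 difference was -0.41 (SD 0.13, 8 copies), a value added after the data were seen. In all, 5 of the copies lay in damaged areas. The other 5 had signals of 552 to 617 with DMSO and 464 to 511 with GW4064, and gave -0.37 (SD 0.12), with no copy above -0.18. The difference of Tlr2 was thus larger than the SD over its copies, although single copies ran from -0.58 to 0.17. That SD of 0.23 was itself large, beside a median of 0.076 among 50 probes of a like level printed 10 times. Of all genes measured, 9.68% were lower by more than Tlr2.

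**Figure D2:**
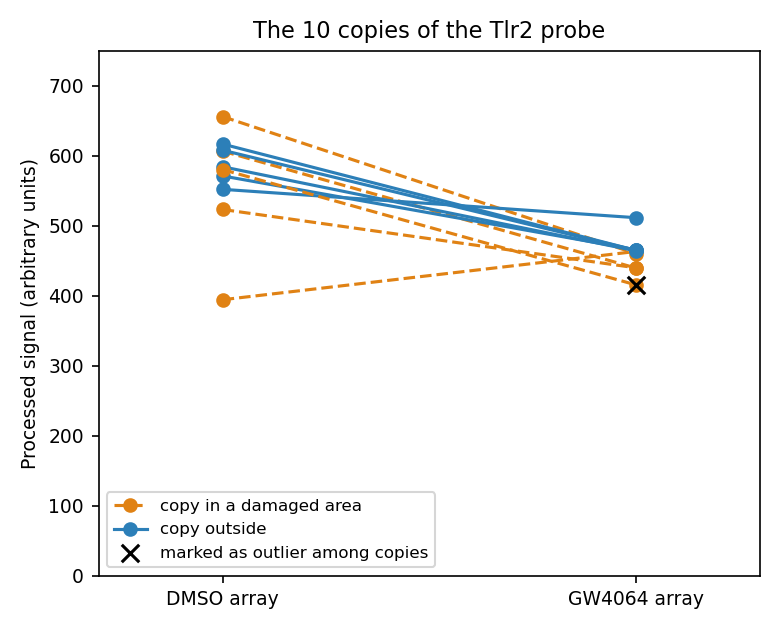
Processed signal (arbitrary units, before scaling between the arrays) of each of the 10 copies of the Tlr2 probe, with a line joining the same copy on the DMSO and the GW4064 array. Dashed orange lines are the 5 copies in damaged areas and solid blue lines the 5 outside; the single line that goes up starts at the lowest DMSO signal (394), and the cross marks the copy left out as an outlier on the GW4064 array (416).

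Tlr1 had a signal of 4102 with DMSO and 5188 with GW4064, a log2 difference of 0.27 (1.21-fold), or 1.34 times the software error of 0.20. Among 66 probes of a like level printed 10 times, the median SD of the difference was 0.073. Of all genes measured, 11.9% were higher by more. Tlr6, the neighbour of Tlr1 in the genome with no coding gene between them, had signals of 1688 and 1743 and a log2 difference of -0.019, well within its error of 0.20. Relative to Tlr2, Tlr1 was 1.54-fold higher with GW4064, a log2 difference of 0.62 ± 0.29. The error given for each pair combines the software error of a single spot of each gene, although Tlr2 is a mean over copies. The contrast of Tlr1 with Tlr2 does not depend on a shift between the arrays and lay between 0.48 and 0.65 in all 12 settings tried. Tlr6 relative to Tlr2 gave 0.33 ± 0.29, and Tlr1 relative to Tlr6 gave 0.29 ± 0.29, neither of which was clearly larger than the error. These and the contrasts of Tlr4 with Cd14 and of Tlr7 with Tlr8 are the 5 pairs compared, taken as known partners or as neighbours in the genome.

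TLR4 binds LPS together with MD-2, the product of Ly96, and CD14 hands the LPS over to them. Tlr4 had a signal of 2726 with DMSO and 3271 with GW4064, a log2 difference of 0.20, about the size of its error of 0.20. It was read at 1 spot, which lay in a damaged area with 3 spots of 8-fold difference around it. The median log2 difference of all its neighbours within 300 µm that were well above background on both arrays was 0.060. Cd14 had signals of 6887 and 7873, a log2 difference of 0.13, which was smaller than its error of 0.20. It turned to -0.046 with scaling to the spike-in control RNA. Ly96 had signals of 4318 and 4431 and a log2 difference of -0.028, or 0.0015 under normexp. Tlr4 and Cd14 did not differ from each other beyond the error, at 0.070 ± 0.29.

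The receptors of nucleic acids in endosomes spanned a narrower range, with log2 differences from -0.16 to 0.14. Their median was -0.022, against 0.13 for the 5 surface genes. Tlr13, the receptor for bacterial ribosomal RNA that mice have and humans lack, had a signal of 31056 with DMSO and 35803 with GW4064. Its log2 difference of 0.14 was smaller than its error of 0.20. Tlr9, the receptor for unmethylated CpG DNA, had signals of 1035 and 1067 and a log2 difference of -0.022.

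Tlr7, the receptor for single-stranded RNA, was read by 2 probes that did not give the same sign. The first had signals of 1394 with DMSO and 1699 with GW4064, a log2 difference of 0.22, and its neighbours on the slide had a median of 0.20 in the same direction. The second had signals of 1200 and 1215 and a log2 difference of -0.048, and its spot lay in a damaged area. The mean over both probes was 0.085, and neither probe differed by more than about 1 software error. Tlr8, which lies beside Tlr7 in the genome, had signals of 264 and 258 and a log2 difference of -0.098 (error 0.21). Tlr7 relative to Tlr8 gave 0.18 ± 0.29.

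Tlr3, the receptor for double-stranded RNA, had signals of 100.5 with DMSO and 93.8 with GW4064. Its log2 difference of -0.16 was within its error of 0.22, and the SD over copies among 30 probes of a like level had a median of 0.14.

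**Figure D3:**
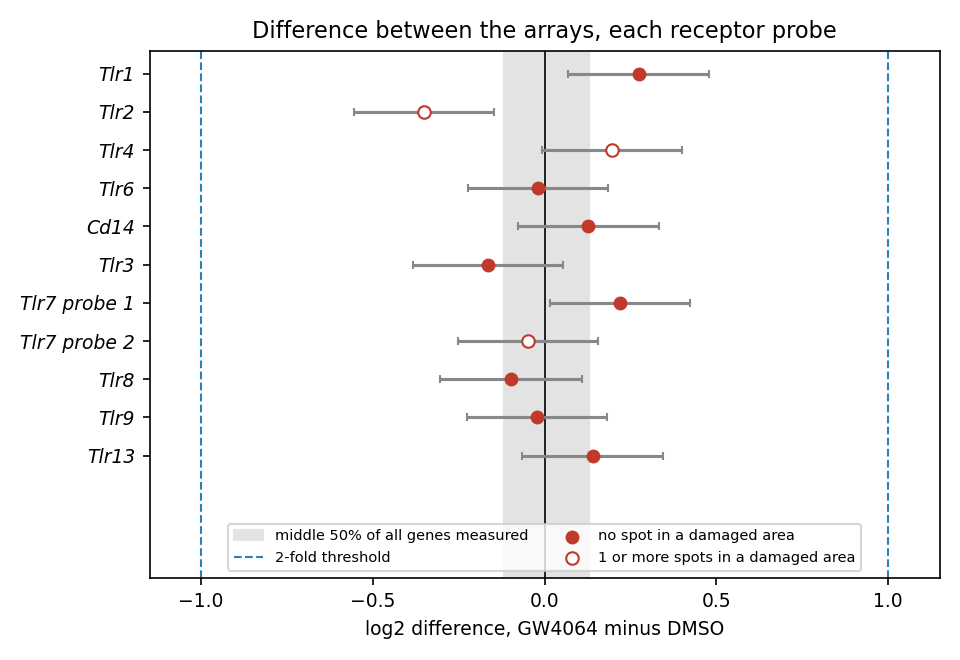
log2 difference (GW4064 minus DMSO) of each of the 11 probes, with bars of 1 error by the scanner software's model for a single spot. The grey band is the middle 50% of all genes measured and the dashed lines mark 2-fold. Hollow points have 1 or more spots in a damaged area; no probe comes near the 2-fold lines, and Tlr1, Tlr2 and the first Tlr7 probe have bars that do not reach 0.

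Scaling to the spike-in control RNA, which is added in equal amount to each labelling, in place of the 75th percentile moved the median of all genes measured by -0.17. Under it, 2 of the 10 genes, Tlr1 (0.10) and Tlr4 (0.023), were higher and 8 were lower. Cd14, Tlr7 (-0.088) and Tlr13 (-0.034) changed sign under this setting alone. Tlr2 was lower in every setting, from -0.52 with the spike-in RNA to -0.30 after the normexp background correction. Tlr3, Tlr6 and Tlr8 were also lower in all 12 settings. Tlr9 was lower in all but the normexp correction, which gave 0.025. Under no setting did any of the 10 genes reach 1.5-fold, the largest value being 1.44-fold.

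**Figure D4:**
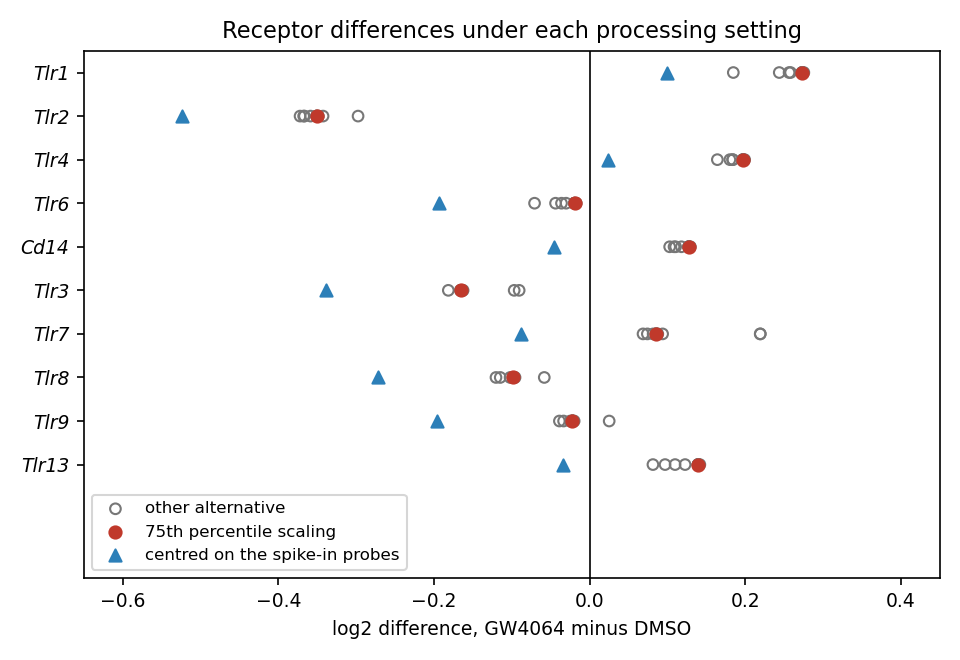
log2 difference (GW4064 minus DMSO) of each gene under the 12 processing settings. Red points are the 75th percentile scaling, blue triangles the centring on the spike-in probes and grey circles the other alternatives; the triangles sit to the left of the red points by the same amount for every gene, and Tlr2 lies left of 0 in all settings.

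The array also held 1 probe each for Tlr5, Tlr11 and Tlr12, which bind flagellin and, for the last pair, profilin of protozoa. Tlr5 and Tlr11 were not well above background on either array, with signals of 3.36 and 3.14 for Tlr5 and 7.74 and 8.77 for Tlr11. Tlr12 was measured at low signals of 49.8 and 40.7, a log2 difference of -0.35 against an error of 0.26, and of -0.19 after the normexp correction.

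The proteins that fold, carry and assist the receptors were about as level as the receptors themselves. Of 18 such genes, all were measured, with 9 higher, 9 lower and a median of -0.0024. Of these, 0 passed 2-fold (background 2.04% and 2.71%) or 1.5-fold. The split by sign depended on the scaling, with 3 higher and 15 lower (median -0.18) with spike-in scaling. It was 7 and 11 (median -0.055) with quantile scaling, and the median was -0.080 after the normexp correction. Ly86, which encodes MD-1, had a log2 difference of 0.49, from signals of 9763 and 14390, the largest of the list. Its partner Cd180, a receptor homolog of the cell surface, had 0.11 (-0.063 with spike-in scaling). Cnpy4, a chaperone of surface receptors, had -0.32. Hsp90b1, the chaperone gp96 that folds most of the family, had 0.28, and its partner Cnpy3 had -0.089. Unc93b1 differed by 0.040, from signals of 49343 and 53100, and turned to -0.13 with spike-in scaling, -0.054 with quantile scaling and -0.0077 with a loess.

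Among 27 genes for adaptors, kinases and transcription factors below the receptors, 1 was 2-fold or more higher and 0 lower, where 2.04% and 2.71% of all genes were. The median was 0.012, with 15 higher and 12 lower, and lay between -0.16 and 0.014 over the settings. The gene past 2-fold was Ikbke, which encodes the kinase IKK epsilon that acts on interferon regulatory factors. It had a signal of 325 with DMSO and 1200 with GW4064, a log2 difference of 1.82 (3.53-fold), and between 1.64 and 1.83 in all settings. It was read at 1 spot outside the damaged areas. Tbk1, the closely related kinase of the same list, had -0.11. Myd88, the adaptor of nearly all the receptors, was printed 10 times and had signals of 5945 to 6581 with DMSO and 5889 to 6326 with GW4064. Its log2 difference was -0.096 (SD 0.063 over 10 copies). Tirap, the bridging adaptor of TLR2 and TLR4, had -0.051, and Ticam1, which encodes TRIF, had -0.0062 (0.019 after the normexp correction). Ticam2, which links TRIF to TLR4, had 0.52 from low signals of 61.3 and 91.8 at 1 spot in a damaged area. This was 0.19 after the normexp correction and 0.60, past 1.5-fold, with quantile scaling.

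Of 16 genes for inhibitors of the pathway, 15 were measured, with 8 higher and 7 lower and a median of 0.038. None passed 2-fold in either direction, and 1 was 1.5-fold or more lower (5.56% of all genes). This was Dusp1, a phosphatase of MAP kinases, with signals of 3203 and 2208 and a log2 difference of -0.60. With the normexp correction it was -0.58 and no inhibitor was 1.5-fold lower, whereas 2 were with spike-in scaling. The median of the list was -0.0062 after the normexp correction and -0.14 with spike-in scaling. Rnf216, a ubiquitin ligase that marks Toll-like receptors for degradation, had 0.56 at 1 spot in a damaged area. Irak3, the inhibitory kinase of the IRAK family, had 0.14, and -0.038 with spike-in scaling.

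The genes that Toll-like receptor ligands induce in macrophages were more spread than the receptors. Of 20 such genes, 19 had a probe and 15 were measured. By sign 12 were higher and 3 lower, beside 51.6% and 48.2% of all genes. The 12 include Il1a and Ptgs2, well above background on the GW4064 array only, and Tnf and Nos2, both close to 0. The 3 lower genes were Il10, Cxcl10 and Cd40. Cxcl10 had signals of 44.3 and 31.5 and a log2 difference of -0.56, and Cd40 had -0.16. With both arrays required to be above background, 10 of 12 were higher. With spike-in scaling, centring on the median of bright probes or normexp, 10 of 15 were. The median log2 difference of the 15 was 0.33 (0.16 with spike-in scaling) beside 0.0068 for all genes. There were 3 genes 2-fold or more higher and 1 lower, where 2.04% and 2.71% of all genes were. Acod1, which encodes the enzyme that makes itaconate, had signals of 38.4 to 71.7 with DMSO and 224 to 254 with GW4064 over the 9 copies left of its probe. Its log2 difference was 2.26 (SD 0.27), and 1.28 after the normexp correction. Ccl5, a chemokine for T cells and monocytes, had signals of 446 and 1311 at 1 spot, a log2 difference of 1.49.

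Il1b, the cytokine IL-1 beta, was dim, with 18.2 to 23.2 on DMSO and 74.3 to 98.2 on GW4064 over 7 copies left on both arrays. Its log2 difference of 1.90 was 0.64 after the normexp correction, below 2-fold. Il10, an anti-inflammatory cytokine, had a signal of 44.8 with DMSO and of 15.5 with GW4064, where 4 of the 10 copies of its probe were well above background. Its log2 difference was -1.60 as measured, -1.47 (SD 0.48) over the 7 copies left on both arrays, and -0.50 after the normexp correction, below 2-fold. Marco, a scavenger receptor, had 127 and 245, a log2 difference of 0.89. Tnf was printed 10 times and had 925 to 1039 with DMSO and 980 to 1093 with GW4064, a log2 difference of 0.0014 (SD 0.045 over 10 copies). Il6, Ifnb1, Cxcl1 and Cxcl2 were not well above background on either array. Acod1 and Ccl5 thus stayed past 2-fold in all 12 settings, whereas Tnf differed by less than the spread of its copies. Tnf, Nos2, Ptgs2, Cxcl10, Cd40, Tbk1 and the dim cytokines, and the single marker genes given below, were chosen after their values were seen.

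**Figure D5:**
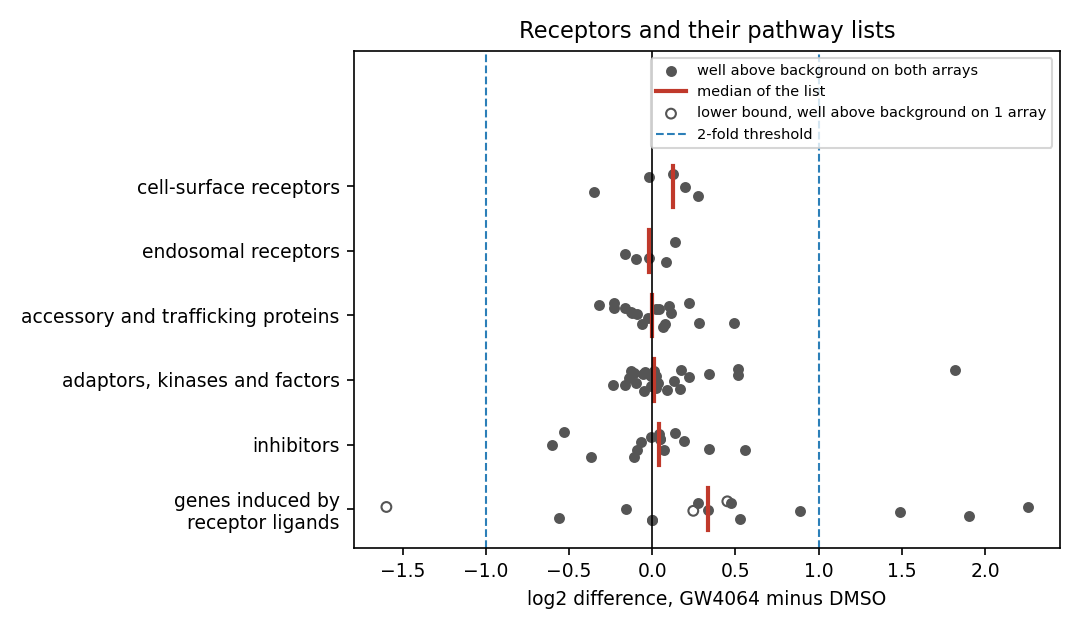
log2 difference (GW4064 minus DMSO) of each measured gene in the receptor and pathway lists, 1 point per gene, with the median of each list as a red line and the 2-fold threshold as dashed lines. Hollow points, called lower bounds in the legend, are genes well above background on 1 array only. Il1a is such a bound, whereas Il10 and Ptgs2 are drawn at the difference as measured. The receptors and accessory proteins sit close to 0, whereas Ikbke and some of the genes induced by ligands lie past the 2-fold lines.

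The cells carried the markers of macrophages on both arrays. Of 8 macrophage markers, 7 had a probe and all 7 were well above background, with a median log2 difference of 0.055 and a summed signal of 138078 on DMSO and 126738 on GW4064. The median turned to -0.0048 with quantile scaling, to -0.071 after the normexp correction and to -0.12 with spike-in scaling, where all 7 were lower. Some of the marker lists of other cells that could express these receptors differed between the arrays. Their counts stand beside all genes measured, of which 51.6% were higher and 48.2% lower by sign. Past 1.5-fold, 4.39% of all genes were higher and 5.56% lower. Of 6 neutrophil markers, 5 were measured and 4 were lower with GW4064, with a summed signal of 11424 on DMSO and 7232 on GW4064 and a median log2 difference of -0.45. Of 10 stromal cell markers, 9 were measured and 8 were lower, with a median of -0.76. Among the 8, Thy1 (18.7 and 10.9) was well above background on the DMSO array only, so it could count only as lower. With both arrays required to be above background, 7 of 8 were lower, with a median of -0.78. The summed signal of all 10 was 43582 and 37478. Fn1 was the exception, with 25320 and 27260, and Lum was not well above background. Of 6 dendritic cell markers, Xcr1, Clec9a and Cd209a were not well above background, and 2 of the other 3 were higher. The median of these 3 was 0.44, the value of Zbtb46, from dim signals of 23.7 and 33.7. It was 0.097 after the normexp correction. With both arrays required to be above background, the median was 0.021, with 1 of 2 genes higher. The summed signal of all 6 was 186640 and 159260. Flt3, the receptor of a growth factor for dendritic cells, was read by 1 of its 2 probes, the other being not well above background on either array. It was at least 4.94-fold higher, from 10.5 (not well above background) and 81.5, at a spot in a damaged area. After the normexp correction no gene of this list passed 2-fold. Itgax, which macrophages also express, had 186594 and 159127, a log2 difference of -0.30. Of 5 plasmacytoid dendritic cell markers 4 were measured, 1 of them higher and 3 lower, with a median of -0.048, and Klk1 was not well above background. The median was 0.015 after the normexp correction, with 2 higher and 2 lower. Ly6d alone passed 1.5-fold, with a log2 difference of -0.88 from 70.6 and 40.0 at 1 spot in a damaged area. It did not pass 1.5-fold after the normexp correction. The summed signal of all 5 was 52653 with DMSO and 56779 with GW4064, with 15818 and 19351 for Bst2. Siglech had 36736 and 37360 by 1 of its 2 probes, the other being not well above background on either array. Among B cell markers, Cd79b had 282 and 236, a log2 difference of -0.32, and Cd79a and Pax5 were not well above background. Ms4a1 was at least 2.47-fold lower, from 35.8 and 7.08 (not well above background). After the normexp correction neither Cd79b nor Ms4a1 was 1.5-fold lower. Whether these cells had a part in the lower signal of Tlr2 was not tested, and fewer cells of a type and less RNA per cell cannot be told apart in RNA from whole cultures.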

How the data were processed

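The members and gene lists were chosen with earlier results of these data known. The authors deposited the intensity of each spot from Agilent Feature Extraction 10.7.1.1, with the background subtracted and trends within the array removed, together with the software's error and the median spot and background intensity. A log2 table deposited by the authors was used as an alternative. The difference between its columns equalled the one computed here within 0.001 for 39200 probes, apart from a constant of 0.0022. The baseline of its centring is unknown, and its medians were 0.035 and -0.051. The 75th percentile of log2 signals over non-control spots was subtracted, marked spots (399 and 207) were left out, copies of a probe were averaged and a gene was the mean over its probes. A probe well above background on 1 array only entered as a bound if its other signal was below the lowest one well above background there. Otherwise it entered as measured. Gene symbols were looked up by RefSeq accession (GRCm38.p6) and found for 26581 of 39429 probes. The array design used mm9, so no coordinates are given. Named genes were the 10 members, fixed pathway genes, and genes past 1.5-fold (or the 2 with the largest difference) in each list. The calculation was tested on simulated data. No test was possible with single arrays. The result of 1 marker gene is not reported here. The 12 settings were this one, quantile scaling, centring on the median of bright probes, spike-in scaling, a loess (span 0.3), normexp, the deposited table, marked spots kept, both arrays above background, no filter on dim probes, the brightest probe of a gene, and damaged areas left out. Python 3.11.15, pandas 2.3.3, statsmodels 0.14.6, R 4.3.3 and limma 3.58.1 (normexp, offset 50) were used.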

Additional observations from a re-analysis of the deposited data

How the results depend on the processing

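No paired analysis was possible because there was 1 array for each treatment. The count of receptor genes past 2-fold was 0 in each direction under all settings, and 0 past 1.5-fold. The median log2 difference of the 10 genes was 0.033. It turned to -0.14 with spike-in scaling, where the whole array shifted by -0.17, and to -0.019 without the damaged areas, which removed Tlr4. Under the other alternatives it lay between 0.016 and 0.060, the highest value being that after normexp. The planned correction by normexp used the median spot intensity, the one that the files hold. Over all genes, 276 were 2-fold or more higher and 367 lower. These counts were 72 and 64 after normexp, 107 and 164 with both arrays required to be above background, 698 and 767 without a filter on dim probes and 168 and 202 without the damaged areas. With the spike-in RNA, 30.2% of the calls were higher, against 42.9%. Precision is limited by having 1 array per treatment, and Tlr3 had the lowest signals of the 10 genes.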
